A study of Mus musculus with 9 samples.

Results

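The genes described here encode the cytosolic translation factors and the cytosolic aminoacyl-tRNA synthetases of the mouse, that is, the soluble machinery that starts, runs and ends protein synthesis around the ribosome and charges the tRNAs it uses. They were chosen from the deposited annotation as protein-coding genes whose symbols begin with Eif1 to Eif6, Eef1 or Eef2, together with the cytosolic synthetases and the genes Etf1, Gspt1 and Pabpc1. The rule found 110 of the 56748 genes in the table. Of these, 63 carry names of initiation factors, 9 are elongation factors, 20 are synthetases, 3 act in termination or bind the poly(A) tail, and 15 are kinases, binding proteins or methyltransferases that act on the factors. The rule uses symbols and gene type only, and no measured level enters it.

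RNA-Seq was performed on Hepa1-6 cells, a mouse hepatoma line, in 3 groups of 3 libraries. One group was the control, and the others received lefamulin or tiamulin, each at 37 µg/mL, for 2 days. The labels call the control untreated, whereas the methods of the study name a vehicle. Both drugs are pleuromutilins, antibiotics that block the peptidyl transferase centre of the bacterial ribosome. They share the pleuromutilin core and a thioether side chain and differ in the amine-bearing end of that chain, an amino-hydroxycyclohexyl group in lefamulin and a diethylaminoethyl group in tiamulin. All libraries came from a single cell line, and nothing in the labels says that they came from separate cultures, so each p-value measures only the spread between these libraries, which may be technical.

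Total counts lay between 15568887 and 18008105 per library. Tiamulin replicate 2 stood apart. Its counts differed from those of the other tiamulin libraries by chi-square values of 18.1 and 20.6 per degree of freedom, against 2.88 to 7.57 for all other pairs of libraries within a group. Its deviation from the mean of its own group followed the GC content of genes, with a Spearman rho of 0.764 across 6210 genes. Within their groups tiamulin replicates 1 and 3 had -0.658 and -0.689 and control replicates 1 and 2 had 0.604 and -0.593. Deviations within a group cancel out, so the signs of its libraries depend on each other. Results are therefore given with and without that library, and the part of GC content in them was not tested beyond a fit with GC and length offsets. Of the 9 hepatocyte markers, Alb, Afp, Trf, Hnf4a, Krt8 and Krt18 were abundant. Apoa2 stayed between 0.945 and 4.32 FPKM (counts scaled to gene length and library total), and Ttr and Apoa1 were near 0, with at most 2 and 6 counts in any library. Summed markers of blood cells reached at most 0.0863 FPKM, of endothelial cells 0.723 FPKM and of fibroblasts 3.25 FPKM, the last almost wholly Pdgfra.

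Translation initiation starts when eIF2, carrying GTP and the initiator tRNA, joins eIF1, eIF1A, eIF3 and eIF5 on the small ribosomal subunit, while the eIF4 factors bind the mRNA cap, unwind the leader and link it to the poly(A)-binding protein Pabpc1. eIF2B recharges eIF2 with GTP, and the eIF2 kinases (Eif2ak1 to Eif2ak4) block this step, which lowers general initiation but favours translation of Atf4, a transcription factor of amino acid metabolism. In elongation, eEF1A delivers charged tRNAs, eEF2 moves the ribosome along and eIF5A helps at slow peptide bonds. Each synthetase attaches a single kind of amino acid to its tRNAs, except Eprs, which serves both glutamate and proline. In hepatocytes this machinery is in heavy use because the liver makes most plasma proteins.

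Names and functions do not match for every gene that the rule takes in. Eif4a3 belongs to the exon junction complex, Eef1e1 is a scaffold protein of the multi-synthetase complex, and Gars and Kars each encode both the cytosolic and the mitochondrial enzyme. The rule also took in 16 genes named Eif1ad followed by a number. None of these numbered genes had enough counts to be tested.

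Promoters of the synthetases were read for the C/EBP-ATF composite element, the site that ATF4-containing dimers bind, with the letters TGATGNAA on both strands and, within it, the stricter TGATGCAA. RefSeq promoters, from 250 bases before to 50 after each start on GRCm38.p6, were matched by symbol for 13 of the 20 synthetases, and not for Cars, Hars, Lars, Nars, Rars, Vars and Wars. TGATGNAA stood in 5 of the 13 (Aars, Gars, Iars, Tars and Yars) and TGATGCAA in 4 of them, all but Gars. Among all 32851 promoters of the same length, 3.97% held the first and 0.895% the second. The motif was picked with the expression values known, and a match describes letters only. The matching stretches are shown because these 5 transcripts are among those described next, with the motif in capitals.
Aars, chr8:111033692-111033841 on the plus strand: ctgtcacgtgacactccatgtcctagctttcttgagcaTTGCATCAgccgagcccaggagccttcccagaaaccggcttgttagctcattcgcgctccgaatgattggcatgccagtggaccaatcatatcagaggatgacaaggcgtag
Tars, chr15:11399659-11399808 on the minus strand: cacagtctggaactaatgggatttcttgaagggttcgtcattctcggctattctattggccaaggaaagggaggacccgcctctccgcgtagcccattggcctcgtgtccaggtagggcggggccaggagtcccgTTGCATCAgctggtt
Gars, chr6:55037851-55038000 on the plus strand: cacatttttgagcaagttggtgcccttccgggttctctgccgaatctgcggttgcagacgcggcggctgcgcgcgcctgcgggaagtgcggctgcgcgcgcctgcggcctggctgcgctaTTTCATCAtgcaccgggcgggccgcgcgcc
Iars, chr13:49682126-49682155 on the plus strand: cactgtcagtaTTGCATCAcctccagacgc
Yars, chr4:129189895-129189924 on the plus strand: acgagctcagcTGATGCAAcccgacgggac

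In the Aars, Tars, Gars and Iars stretches the capitals read TTGCATCA or TTTCATCA, the reverse complement of the motif, and in Yars the motif itself. Counted from the transcription start, the match began at base -112 in Aars, -30 in Gars and -15 in Tars, and at base 8 in Iars and 4 in Yars, just inside the transcript. Aars held a second match to TGATGNAA, not to TGATGCAA, from base 10, beyond the stretch printed. Outside the synthetases, TGATGNAA stood in 1 of the 38 promoters found for 34 initiation factors (Eif2s3x), in 1 of 17 for 11 kinases, binding proteins and methyltransferases (Eef2k), in 0 of 10 for 5 elongation factors and not in the 1 found for the termination group. Each synthetase matched a single promoter. TGATGCAA stood in none of the promoters outside the synthetases.

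Levels in the control libraries were compared first, as FPKM. Of the 110 genes, 87 passed the filter on low counts. The other 23 had at most 10 counts in any library, and 3 of them, Eif2s3y, Eif4e1b and Eif1ad18, had no counts at all. The elongation factors were the most abundant class, with a median of 360 FPKM over 7 tested genes, against 45.3 FPKM for 43 initiation factors, 46.4 FPKM for the 20 synthetases and 8.24 FPKM for 14 kinases, binding proteins and methyltransferases. Eef1a1 (eEF1A) had the highest level, 2698 FPKM, and the methyltransferase Eef1akmt3 the lowest of those tested, 0.345 FPKM. Among synthetases, control means ran from 12.7 FPKM for Yars to 178 FPKM for Gars.

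**Figure D1:**
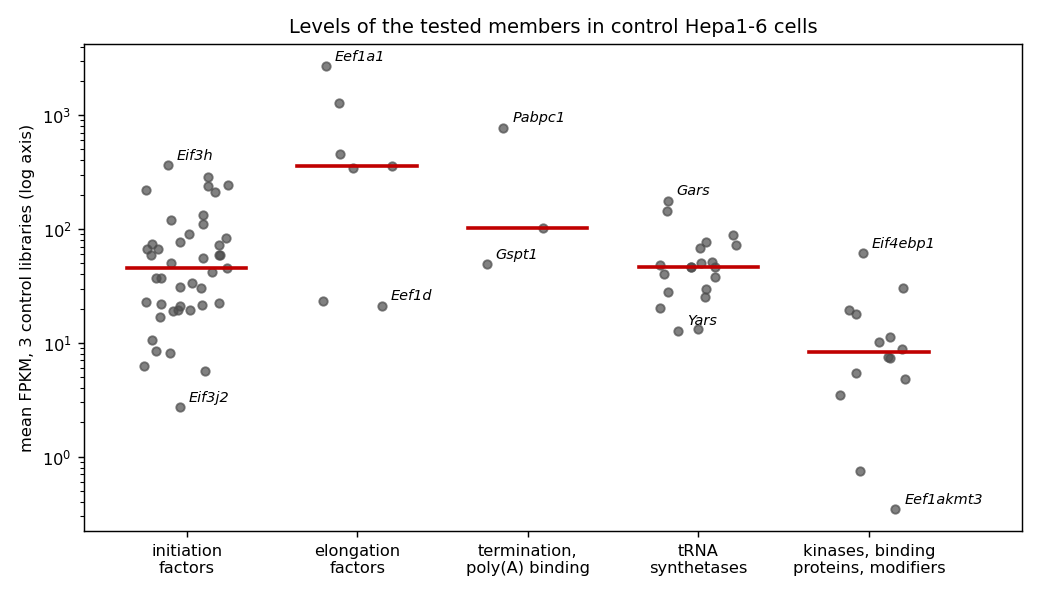
Mean FPKM over the 3 control libraries (vertical, log axis) of each tested gene, by class (horizontal). Each point is a gene, red lines are class medians, and the highest and lowest gene of each class are named. Elongation factors reach 2698 FPKM for Eef1a1 and have the highest median, 360 FPKM.

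Paralogs were expressed unevenly. Eef1a1 had 2696, 2707 and 2692 FPKM in the controls, while its neuronal and muscle paralog Eef1a2 had at most 5 counts in any library. Eif5a had 459, 456 and 451 FPKM, while Eif5a2 had at most 6 counts. The helicases Eif4a1 and Eif4a2 were both present, at 237, 241 and 240 FPKM for Eif4a1 and 48.0, 53.6 and 48.9 FPKM for Eif4a2. Neither helicase passed the edgeR test described next under either drug. However, Eif4a1 passed as lower under tiamulin in 6 of 20 other fits (other tools, filters and terms, and each library left out in turn), among them DESeq2 and that without tiamulin replicate 2 (log2 change -0.12, adjusted p = 0.0175), and under lefamulin in 1, with GC and length offsets (-0.09, adjusted p = 0.0358). Eif3j2, a near-identical copy of Eif3j1, and the numbered Eif1ad genes remain uncertain, because reads could be split among similar genes. Whether the numbered genes share reads with Eif1ad, Eif1a or Eif1ax was not tested.

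Which of these genes changed under each drug was asked with edgeR's quasi-likelihood test, and a gene is said to rise or fall at a Benjamini-Hochberg adjusted p below 0.05 over the 14510 genes tested. Under lefamulin 17 of the 87 rose and 1 fell, where 7.09% of all tested genes rose and 6.00% fell. Under tiamulin 27 rose and 7 fell, where 9.08% and 7.34% of all genes did. None passed the study's further threshold of an absolute log2 change above 1 in either comparison, at an adjusted or an unadjusted p below 0.05, while 1.51% of all genes did under lefamulin and 1.78% under tiamulin. All 3 treated libraries lay above all 3 controls for 39 of the 87 under lefamulin and 31 under tiamulin, and below for 13 and 12. Over all genes these shares were 18.9% and 17.1% above and 18.8% and 15.2% below. Both comparisons use the same control libraries. Without tiamulin replicate 2, 28 rose and 6 fell under lefamulin, where the shares of all genes were 12.2% and 12.7%, and 31 rose and 11 fell under tiamulin, where they were 11.7% and 11.3%. Every gene called with it was still called without it except Eif2ak3 under tiamulin. Calls that were lost with 5 or more of the 9 libraries, each left out in turn, were Cars and Eef2k (7 each), Lars (6) and Eif4h (5) under lefamulin, and Eef1d, Eif4ebp2 and Eif2ak3 (8 each) and Eif2s2 and Eif4h (7 each) under tiamulin.

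The synthetases had the highest median change of the classes under both drugs. Under lefamulin 11 of the 20 rose and none fell, with a median log2 change of 0.20, and under tiamulin 15 rose and none fell, with a median of 0.31. The medians over all tested genes were 0.00 in both comparisons. Of these genes 7.09% rose and 6.00% fell under lefamulin, and 9.08% and 7.34% under tiamulin. No synthetase fell at an unadjusted p below 0.05 in edgeR, or by DESeq2 or limma. Nars, Sars, Aars, Wars, Tars, Rars, Farsb, Iars, Eprs, Cars and Lars rose under both drugs, and Yars, Mars1, Qars and Gars passed under tiamulin alone. The changes were small, at most 1.52-fold. Without tiamulin replicate 2 the counts were 14 up and 1 down under lefamulin and 15 up and 1 down under tiamulin, with a tiamulin median of 0.27. That fit called 12.2% of all genes higher and 12.7% lower under lefamulin, and 11.7% and 11.3% under tiamulin. With any other single library left out, 8 to 11 rose under lefamulin and 13 to 15 under tiamulin, where 3.73% to 6.91% and 5.6% to 7.96% of all genes did. With GC and length offsets, 13 rose under lefamulin, where 11.8% of all genes did. Under tiamulin 15 rose and 1 fell with the offsets, where 13.3% and 14.0% did. The gene that fell without tiamulin replicate 2 was Vars under lefamulin and Farsa under tiamulin, and with the offsets it was Hars. The median GC content of the class was 49.8%, against 49.2% for all tested genes.

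Sars (ENSMUSG00000068739), which charges tRNA with serine, changed most under tiamulin. It had 78.9, 78.3 and 74.1 FPKM in the controls, 100.1, 97.3 and 101.7 FPKM under lefamulin and 107.4, 132.5 and 111.4 FPKM under tiamulin. The 3 groups did not overlap, and tiamulin replicate 2 was the highest library. The log2 change was 0.37 under lefamulin (SE 0.068, adjusted p = 0.00232) and 0.60 under tiamulin (SE 0.068, adjusted p = 3.64e-05), or 0.51 without replicate 2. Aars, the alanine enzyme and one of those with the motif, had 29.3, 27.2 and 26.7 FPKM in the controls, 34.6, 36.8 and 35.7 FPKM under lefamulin and 36.9, 45.9 and 37.5 FPKM under tiamulin. Its log2 change was 0.37 (SE 0.075, adjusted p = 0.00506) and 0.53 (SE 0.075, adjusted p = 0.000237), the latter 0.43 without replicate 2. In both genes every treated library lay above every control.

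Nars (ENSMUSG00000024587), the asparagine enzyme, was the second most abundant synthetase and had 139.7, 150.3 and 138.4 FPKM in the controls. It had 187.2, 189.9 and 185.4 FPKM under lefamulin and 195.2, 192.6 and 207.7 FPKM under tiamulin, and replicate 2 was here the lowest of the tiamulin libraries. Its log2 change of 0.39 under lefamulin (SE 0.052, adjusted p = 0.00018) was the largest of any synthetase in that comparison (with GC and length offsets Aars had the largest, 0.49), and under tiamulin it was 0.48 (SE 0.052, adjusted p = 2.73e-05). Rars, the arginine enzyme, had 88.4, 91.3 and 85.7 FPKM in the controls, 112.6, 110.7 and 105.4 FPKM under lefamulin and 121.7, 118.4 and 121.4 FPKM under tiamulin. The log2 change was 0.31 (SE 0.051, adjusted p = 0.00113) and 0.45 (SE 0.051, adjusted p = 4.09e-05). Tars, the threonine enzyme, had 70.9, 73.0 and 71.0 FPKM in the controls, 90.1, 87.2 and 89.6 FPKM under lefamulin and 92.7, 98.0 and 94.4 FPKM under tiamulin. It rose by 0.31 and 0.41 (SE 0.047 each, adjusted p = 0.000552 and 4.37e-05). The groups of treated and control libraries were separate in all of these genes.

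Iars and Lars charge tRNA with isoleucine and leucine and are held in the multi-synthetase complex with Rars. Iars (ENSMUSG00000037851) had 49.0, 48.5 and 47.6 FPKM in the controls, 56.3, 56.5 and 56.7 FPKM under lefamulin and 66.1, 67.3 and 64.9 FPKM under tiamulin. Its log2 change was 0.23 (SE 0.048, adjusted p = 0.00625) under lefamulin and 0.45 (SE 0.048, adjusted p = 1.93e-05) under tiamulin. Lars had 47.2, 44.2 and 47.3 FPKM in the controls, 52.1, 53.1 and 53.4 FPKM under lefamulin and 61.2, 61.7 and 62.9 FPKM under tiamulin, for log2 changes of 0.195 (SE 0.051, adjusted p = 0.0209) and 0.42 (SE 0.051, adjusted p = 6.16e-05). Both genes showed 3 separate levels, with lefamulin between control and tiamulin, and replicate 2 did not stand out among the tiamulin libraries.

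Of the remaining synthetases that passed under both drugs, Wars, the tryptophan enzyme, had nearly equal log2 changes of 0.345 and 0.34, and Farsb, the beta subunit of the phenylalanine enzyme, 0.26 and 0.23. Eprs rose by 0.205 and 0.31 and Cars, the cysteine enzyme, by 0.20 and 0.37. Cars under lefamulin was the least firm of these, with an adjusted p of 0.0466 that rose above 0.05 when any 1 of 7 libraries was left out. Under tiamulin Yars (tyrosine) rose by 0.315, Mars1 (methionine) by 0.30, Qars (glutamine) by 0.27 and Gars (glycine) by 0.19, while under lefamulin these had 0.11, 0.17, 0.05 and 0.11 with adjusted p from 0.0775 to 0.578. Without tiamulin replicate 2, Mars1 and Gars passed under lefamulin as well, and with the offsets Mars1 and Yars did. Qars passed under tiamulin and not under lefamulin in each of the 20 other fits.

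**Figure D2:**
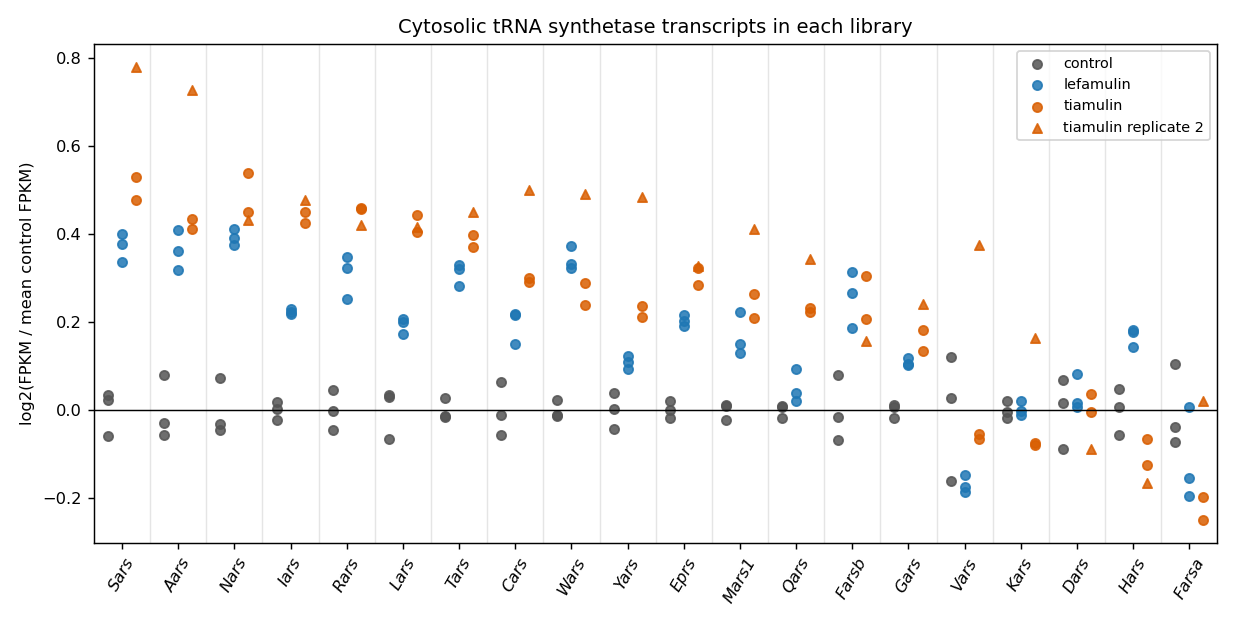
The log2 ratio of the FPKM in each library to the mean control FPKM (vertical) for the 20 synthetases (horizontal, ordered by the change under tiamulin). Each point is a library, grey for control, blue for lefamulin and orange for tiamulin, with a triangle for tiamulin replicate 2. In 15 of the 20 genes every tiamulin library lies above every control, and the triangle is farthest above the other tiamulin libraries in Vars.

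The other 5 synthetase genes passed under neither drug. Kars, the lysine enzyme, had log2 changes of 0.00 under lefamulin (95% interval -0.13 to 0.14) and 0.01 under tiamulin (-0.13 to 0.14). Dars, the aspartate enzyme, had 0.04 (-0.09 to 0.17) and -0.02 (-0.15 to 0.11), and Farsa, the alpha subunit that works with Farsb, had -0.11 (-0.29 to 0.07) and -0.14 (-0.32 to 0.04). Hars, the histidine enzyme, had 0.17 under lefamulin and -0.12 under tiamulin, neither passing. Vars, the valine enzyme, had 55.4, 45.6 and 52.0 FPKM in the controls, 44.8, 46.0 and 45.2 FPKM under lefamulin and 49.1, 66.2 and 48.7 FPKM under tiamulin. It has the highest GC content of the 20, 60.9%. Its log2 change was -0.17 under lefamulin and 0.10 under tiamulin, and with GC and length offsets -0.02 and 0.06.

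The class was also split by membership of the multi-synthetase complex, a grouping applied after the values were seen. Of its 8 enzymes (Eprs, Iars, Lars, Mars1, Qars, Rars, Kars and Dars) 4 rose under lefamulin and 6 under tiamulin, and of the 12 others 7 and 9 rose. The median log2 changes were 0.18 and 0.305 inside and 0.23 and 0.33 outside. Among the 13 synthetases with a promoter sequence, 10 rose under tiamulin, and the 5 with TGATGNAA were all among them. None of the 3 that did not rise, Dars, Farsa and Kars, held it. Sars, Eprs, Farsb, Mars1 and Qars rose under tiamulin without it. Under lefamulin Aars, Iars and Tars rose with it and Sars, Eprs and Farsb without it. Gars and Yars held it and did not pass under lefamulin. With so few genes these are counts and no test was made.

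Initiation factors had medians nearer to 0. Under lefamulin 4 of 43 rose (Eif1, Eif1ad, Eif2s2 and Eif3c) and 1 fell (Eif4h), with a median log2 change of 0.07, where 7.09% and 6.00% of all genes did. Under tiamulin 7 rose (the same 4 and Eif3h, Eif3g and Eif2b2) and 2 fell (Eif4h and Eif4a3), with a median of 0.05, where 9.08% and 7.34% of all genes did. Without tiamulin replicate 2 these counts became 9 and 3 under lefamulin, where the shares of all genes were 12.2% and 12.7%, and 11 and 4 under tiamulin, where they were 11.7% and 11.3%. With GC and length offsets they were 9 and 5, where 11.8% of all genes rose and 11.9% fell, and 14 and 6, where 13.3% and 14.0% did.

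Eif1ad, a protein with an eIF1A-like domain, had the largest change of any under lefamulin (with GC and length offsets Eef2k had the largest, 0.54). It had 21.6, 22.1 and 20.7 FPKM in the controls, 31.6, 30.9 and 30.6 FPKM under lefamulin and 25.6, 25.8 and 26.5 FPKM under tiamulin, so that lefamulin gave the highest level and tiamulin lay between. The log2 change was 0.53 (SE 0.059, adjusted p = 4.31e-05) under lefamulin and 0.28 (SE 0.060, adjusted p = 0.00559) under tiamulin. Eif1, which keeps the scanning ribosome from starting at the wrong codon, had 281.9, 298.4 and 279.7 FPKM in the controls, 343.6, 335.4 and 341.7 FPKM under lefamulin and 346.6, 317.7 and 356.9 FPKM under tiamulin. It rose by 0.25 under each drug (SE 0.055, adjusted p = 0.00849 and 0.00659).

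eIF3, the largest initiation factor, has 14 tested genes here, and 1 rose under lefamulin and 3 under tiamulin, where 7.09% and 9.08% of all genes did. Its subunit Eif3c had 238.1, 249.5 and 237.1 FPKM in the controls, 287.1, 286.3 and 290.4 FPKM under lefamulin and 301.6, 318.9 and 299.7 FPKM under tiamulin. The log2 change was 0.255 (SE 0.047, adjusted p = 0.00246) and 0.345 (SE 0.047, adjusted p = 0.000177). Eif3h, the most abundant initiation factor at 365 FPKM in the controls, and Eif3g each rose by 0.20 under tiamulin (adjusted p = 0.0115 and 0.0224). Under lefamulin Eif3h had a log2 change of 0.15 (adjusted p = 0.0582, or 0.00274 without tiamulin replicate 2). Without that library Eif3d also passed as higher under lefamulin (0.15, adjusted p = 0.0138) and Eif3b as lower (-0.16, adjusted p = 0.00301). That fit called 12.2% of all genes higher and 12.7% lower under lefamulin. Eif3b had 234, 206 and 223 FPKM in the controls and 175, 218 and 177 FPKM under tiamulin, with replicate 2 the highest. Its log2 change under tiamulin was -0.22 (adjusted p = 0.063), and it passed as lower without replicate 2 (-0.33) and, with all libraries, under GC and length offsets (-0.27, adjusted p = 5.4e-07).

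For eIF2 itself, the beta subunit Eif2s2 rose by 0.28 under lefamulin (SE 0.061, adjusted p = 0.00806) and by 0.20 under tiamulin (SE 0.061, adjusted p = 0.0376). Its levels were 56.6, 62.9 and 58.7 FPKM in the controls, 72.4, 72.7 and 70.6 FPKM under lefamulin and 69.8, 62.9 and 71.8 FPKM under tiamulin, where replicate 2 overlapped the controls. The alpha subunit Eif2s1, the target of the eIF2 kinases, had log2 changes of 0.07 and -0.11, and the X-linked gamma subunit Eif2s3x had 0.15 and -0.01. None of these 4 values passed, although Eif2s3x did under lefamulin without tiamulin replicate 2 (adjusted p = 0.0125). Of the 5 subunits of eIF2B only Eif2b2 passed, rising by 0.26 under tiamulin (SE 0.074, adjusted p = 0.0275), where 9.08% of all genes rose. Eif2b1, Eif2b3, Eif2b4 and Eif2b5 had log2 changes between -0.20 and 0.14 over both drugs, and Eif2b4 passed as lower under tiamulin with the offsets (adjusted p = 0.0432).

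Among the 11 tested eIF4 genes none rose under either drug in edgeR with all libraries and no offsets, or by DESeq2 or limma, and at an unadjusted p below 0.05 in edgeR 0 did under lefamulin and 1 under tiamulin. The edgeR fit with all libraries and no offsets called 7.09% of all genes higher under lefamulin and 9.08% under tiamulin. With GC and length offsets Eif4e2 passed as higher under lefamulin (0.13, adjusted p = 0.0324) and Eif4b under tiamulin (0.10, adjusted p = 0.034). Eif4h, which stimulates the helicase eIF4A, fell by 0.20 under lefamulin (SE 0.052, adjusted p = 0.0227) and by 0.175 under tiamulin (SE 0.052, adjusted p = 0.0336). Eif4a3 fell by 0.195 under tiamulin (SE 0.056, adjusted p = 0.0275). The cap-binding protein Eif4e had log2 changes of 0.02 and -0.15 (adjusted p = 0.894 and 0.13, the latter 0.0195 with the offsets), and the scaffold Eif4g1 -0.05 and -0.02.

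Of the 7 elongation factors, 1 rose and 2 fell under tiamulin, where 9.08% and 7.34% of all genes did. Under lefamulin none passed in edgeR, where 1 was higher and 1 lower at an unadjusted p below 0.05, while DESeq2 called 1 higher and 1 lower and limma none. In the fit without tiamulin replicate 2, Eef1b2 (0.18, adjusted p = 0.000527) and Eef1e1 (0.22, adjusted p = 0.00798) passed as higher and Eif5a (-0.11, adjusted p = 0.0127) as lower under lefamulin. That fit called 12.2% of all genes higher and 12.7% lower under lefamulin. With GC and length offsets 1 passed as higher and 2 as lower, where 11.8% and 11.9% of all genes did. Eef2 (ENSMUSG00000034994, on chromosome 10), the translocase, had 1376, 1187 and 1298 FPKM in the controls, 1284, 1286 and 1269 FPKM under lefamulin and 1523, 2047 and 1519 FPKM under tiamulin. All tiamulin libraries were above the controls, and replicate 2 was far above the other two. The log2 change was 0.40 (SE 0.094, adjusted p = 0.0107) under tiamulin, and 0.245 (adjusted p = 0.000189) without replicate 2. Under lefamulin it was -0.01 (95% interval -0.21 to 0.20).

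Eif5a, the factor that carries hypusine, moved the other way. It had 458.7, 455.5 and 451.1 FPKM in the controls, 428.3, 420.1 and 417.3 FPKM under lefamulin and 375.1, 376.9 and 376.5 FPKM under tiamulin. The groups were separate, and replicate 2 lay with the other tiamulin libraries. The log2 change was -0.275 (SE 0.044, adjusted p = 0.000632) under tiamulin and -0.11 (SE 0.044, adjusted p = 0.125) under lefamulin. Eef1d, a subunit of the exchange factor of eEF1A, fell by 0.17 under tiamulin (SE 0.054, adjusted p = 0.0407), a call lost in 12 of 20 other fits. Eef1a1 itself had log2 changes of -0.05 and 0.07, neither passing.

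Of the 3 genes of termination and poly(A) binding, Pabpc1 rose under tiamulin. It had 781, 781 and 764 FPKM in the controls, 828, 819 and 802 FPKM under lefamulin and 933, 1005 and 979 FPKM under tiamulin, for a log2 change of 0.33 (SE 0.044, adjusted p = 0.000161). The release factors Etf1 and Gspt1 did not pass in this fit. Etf1, which reads stop codons, had 0.12 and -0.05, and its GTPase partner Gspt1 had -0.05 and -0.125. With tiamulin replicate 2 left out, Etf1 passed under lefamulin (0.12, adjusted p = 0.0182) and Gspt1 under tiamulin (-0.15, adjusted p = 0.0153), and Gspt1 also did with the offsets (adjusted p = 0.0259).

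Among the genes that act on the factors, Eef2k and Eif4ebp1 rose under both drugs. Eif4ebp1 holds back the cap-binding protein eIF4E when it is not phosphorylated. It had 62.5, 61.5 and 60.2 FPKM in the controls, 74.8, 72.9 and 72.2 FPKM under lefamulin and 79.7, 91.3 and 81.2 FPKM under tiamulin, and rose by 0.26 (SE 0.060, adjusted p = 0.011) and 0.45 (SE 0.060, adjusted p = 0.000131). Its paralog Eif4ebp2 fell by 0.175 under tiamulin (SE 0.055, adjusted p = 0.0422) and had -0.13 under lefamulin, which passed without tiamulin replicate 2 (adjusted p = 0.0216). Its call under tiamulin was lost in 12 of 20 other fits. Eef2k, the kinase that switches off eEF2, was rare, with 84 to 106 counts in a control library, against 113 to 149 with lefamulin and 117 to 155 with tiamulin. It rose by 0.51 (SE 0.159, adjusted p = 0.0469) and 0.60 (SE 0.158, adjusted p = 0.018), and the first of these calls was lost when any 1 of 7 libraries was left out.

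Of the 4 eIF2 kinases 1 rose and 1 fell under tiamulin, where 9.08% and 7.34% of all genes did. Eif2ak2 (PKR, activated by double-stranded RNA) had 8.95, 9.19 and 8.59 FPKM in the controls, 9.69, 9.49 and 9.35 FPKM under lefamulin and 7.61, 7.30 and 7.45 FPKM under tiamulin. It fell by 0.26 under tiamulin (SE 0.068, adjusted p = 0.018). Eif2ak3 (PERK, of the endoplasmic reticulum) rose by 0.26 under tiamulin (SE 0.081, adjusted p = 0.0398), but without replicate 2 the change was 0.17 and its adjusted p 0.0777. Eif2ak1 (HRI, activated when haem is lacking) and Eif2ak4 (GCN2, activated by uncharged tRNA) had log2 changes between -0.03 and 0.16 over both drugs, and neither passed. Eef1akmt1, a lysine methyltransferase of eEF1A, fell by 0.55 under tiamulin (SE 0.143, adjusted p = 0.0163), from 9.95, 12.6 and 11.3 FPKM to 7.20, 6.93 and 8.89 FPKM.

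**Figure D3:**
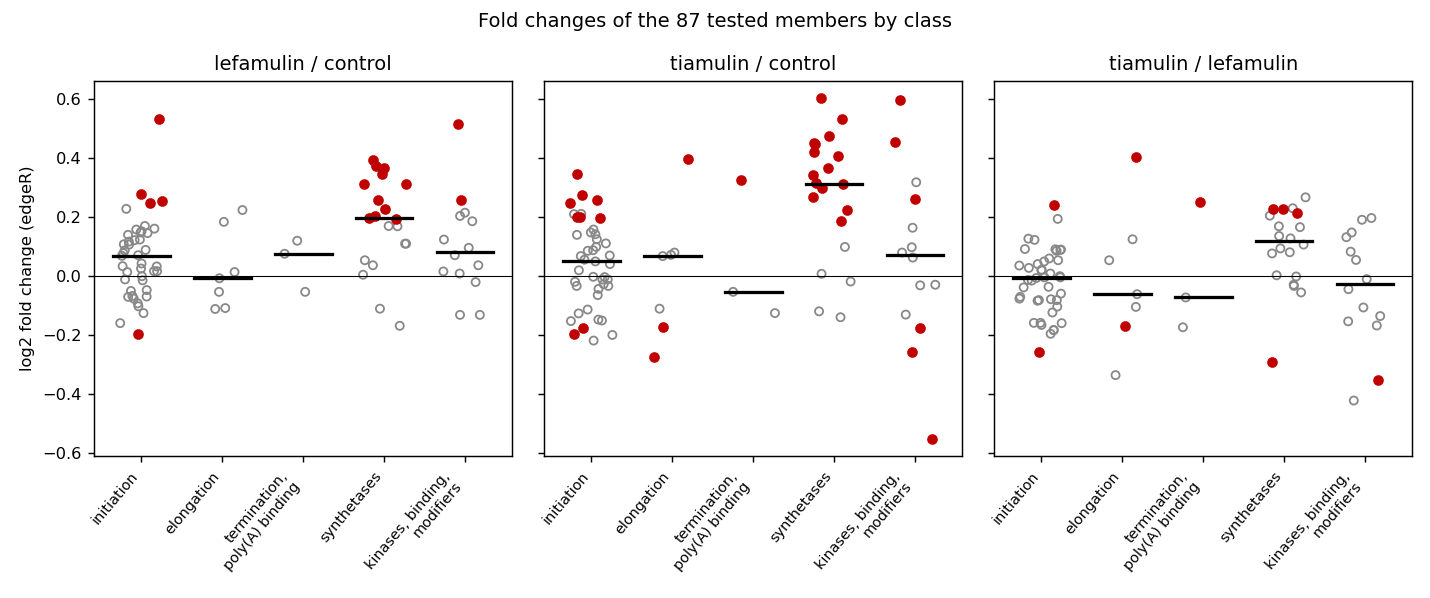
The log2 fold change of each of the 87 tested genes (vertical, from edgeR) by class (horizontal) in the 3 comparisons. Filled red points have an adjusted p below 0.05, open points do not, and black lines are class medians. The synthetase medians are 0.20 under lefamulin and 0.31 under tiamulin, and no gene reaches an absolute change of 1.

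The drugs were then set against each other at the same mass concentration and time. Of the 87 genes, 6 were higher under tiamulin and 4 lower, where 2.85% of all genes were higher and 2.05% lower. None passed the fold threshold as well, which 0.227% of all genes did, and none did at an unadjusted p below 0.05. The p-values are adjusted over all 14510 genes. This contrast followed GC content more than the others did, with a Spearman rho of 0.359 across 6210 genes against -0.189 for lefamulin and 0.12 for tiamulin against control. The count of 10 became 15 (9 higher and 6 lower) without tiamulin replicate 2, where 4.93% of all genes were higher and 3.86% lower. It became 24 (13 and 11) with GC and length offsets, where 6.33% and 6.76% were, and the part of the GC trend in single genes was not tested further. Each of the 10 genes kept its direction and passed in both of these fits.

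The 3 synthetases that were higher under tiamulin than lefamulin were Lars, by 0.23 (SE 0.051, 95% interval 0.12 to 0.34, adjusted p = 0.0211), Iars, by 0.23 (SE 0.047, interval 0.12 to 0.33, adjusted p = 0.0159), and Qars, by 0.21 (SE 0.055, interval 0.10 to 0.33, adjusted p = 0.0402). Hars was lower, by -0.29 (SE 0.059, interval -0.415 to -0.16, adjusted p = 0.0136). Its levels were 43.0, 42.0 and 43.2 FPKM under lefamulin and 36.3, 33.9 and 34.9 FPKM under tiamulin, with the controls between at 39.3, 36.6 and 38.2 FPKM. Neither change of Hars from control passed in this fit. It passed as higher under lefamulin in 4 of the 20 other fits, among them limma on log2(FPKM + 1) and that without tiamulin replicate 2 (0.17, adjusted p = 0.0127), and with the offsets as lower under tiamulin (-0.13, adjusted p = 0.0417). Sars, with the highest fold under tiamulin, had a difference of 0.23 (interval 0.085 to 0.38, adjusted p = 0.0674), which passed without replicate 2 at a smaller size of 0.14. For Aars the difference was 0.17 (interval 0.01 to 0.33, adjusted p = 0.214), and 0.06 without replicate 2 and 0.00 with the offsets. It was for Nars 0.08 (interval -0.03 to 0.19) and for Wars 0.00 (interval -0.14 to 0.14), and none of the 3 passed.

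Eef2 had the largest difference of the 10 genes, 0.40 (SE 0.094, 95% interval 0.20 to 0.61, adjusted p = 0.0279), with tiamulin replicate 2. Without it the difference was 0.25, smaller in size than those of Eif2ak2 (-0.33) and Hars (-0.26). Pabpc1 was higher under tiamulin by 0.25 (SE 0.044, interval 0.16 to 0.34, adjusted p = 0.00551). Eif4b, the RNA-binding partner of eIF4A, was higher by 0.24 (SE 0.060, interval 0.11 to 0.37, adjusted p = 0.0342), with 201, 193 and 195 FPKM under lefamulin and 217, 258 and 222 FPKM under tiamulin around control levels of 217, 207 and 209 FPKM. It passed under neither drug against control with all libraries and no offsets, and without replicate 2 it passed as lower under lefamulin (-0.10, adjusted p = 0.0248). Without that library its difference between the drugs was 0.17.

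Lower under tiamulin than under lefamulin were Eif2ak2, by -0.35 (SE 0.068, 95% interval -0.50 to -0.21, adjusted p = 0.00953), Eif1ad, by -0.26 (SE 0.059, interval -0.38 to -0.13, adjusted p = 0.0241), and Eif5a, by -0.17 (SE 0.044, interval -0.26 to -0.07, adjusted p = 0.044). In each of them all tiamulin libraries lay below all lefamulin libraries. Leaving out lefamulin replicate 1, 2 or 3 reduced the 10 genes that differed to 1 each time, Pabpc1 without replicate 1 or 2 and Eif2ak2 without replicate 3. For the other 77 genes no difference was called, which does not show that the drugs acted alike on them.

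**Figure D4:**
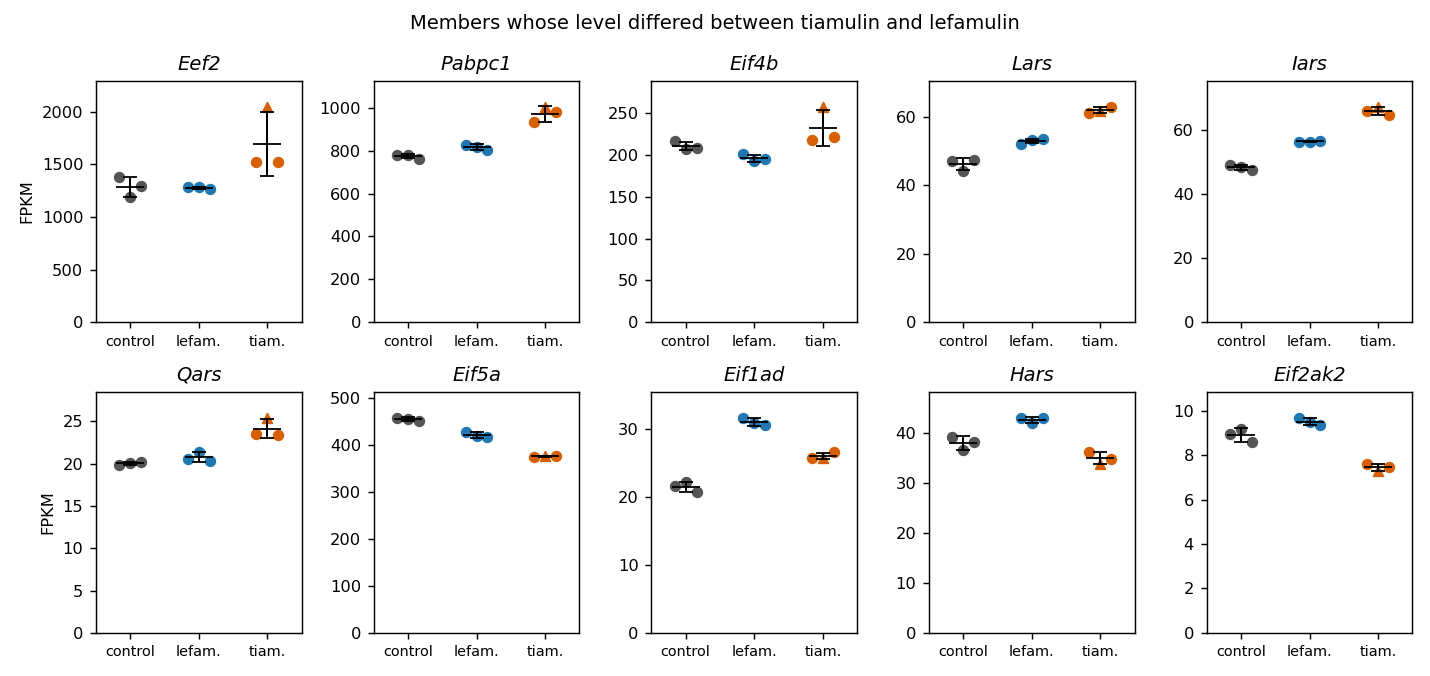
FPKM (vertical, from 0) in each library of the 10 genes that differed between tiamulin and lefamulin, by group (horizontal). Points are libraries (the triangle is tiamulin replicate 2), and bars give the mean and SD of 3 libraries. Eef2 has 1523, 2047 and 1519 FPKM under tiamulin, so its mean depends on the triangle, while Eif5a and Eif2ak2 do not.

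Other genes of the same process were counted beside the synthetases. Of 17 mitochondrial synthetases, which serve the organelle's own ribosomes, 1 rose and 2 fell under lefamulin and 2 fell under tiamulin. Of all genes 7.09% rose and 6.00% fell under lefamulin, and 9.08% and 7.34% under tiamulin. The median log2 changes of these synthetases were -0.08 and -0.05. The lefamulin median ran from -0.12 without control replicate 3 to 0.01 without control replicate 1, and the tiamulin median from -0.10 without tiamulin replicate 3 to -0.04 with limma. Mars2 rose by 0.31 and Yars2 fell by 0.28 under lefamulin, and under tiamulin Cars2 fell by 0.54 and Yars2 by 0.34. Under lefamulin 0 fell without control replicate 2 or 3 or any 1 lefamulin library, 1 without control replicate 1 or tiamulin replicate 1 or 3, and 3 without tiamulin replicate 2, and 0 rose without control replicate 1 or 3 or any 1 lefamulin library. Fits with 1 library left out called 3.73% to 12.2% of all genes higher and 2.86% to 12.7% lower under lefamulin. With only the 2 groups compared or with GC and length offsets 3 fell under lefamulin, where 12.5% and 11.9% of all genes did. Under tiamulin 4 fell without tiamulin replicate 2 (11.3% of all genes) or with the offsets (14.0%), and 1 rose without tiamulin replicate 1 (7.38%). Of 78 ribosomal protein genes 2 rose under each drug, Rps7 (0.24) and Rpl12 (0.19) under lefamulin and Rpl28 (0.205) and Rpl4 (0.14) under tiamulin, where 7.09% and 9.08% of all genes rose. When tiamulin replicate 2 was left out, 17 rose and 2 fell under lefamulin, where 12.2% and 12.7% of all genes did. In that fit 17 rose under tiamulin, where 11.7% of all genes did. With any other single library left out, 0 to 2 rose under lefamulin and 0 or 1 under tiamulin, where 3.73% to 6.91% and 5.6% to 7.96% of all genes did. Without lefamulin replicate 1, 1 fell under lefamulin, where 3.35% of all genes did. Under lefamulin 15 rose and 2 fell with only the 2 groups compared, where 12.4% and 12.5% of all genes did. With no filter 7 rose and 1 fell (3.77% and 3.44% of all genes), and with the offsets 6 rose and 3 fell (11.8% and 11.9%). Under tiamulin these fits gave 0 and 0 (6.70% and 5.26% of all genes), 1 and 1 (5.01% and 3.83%), and 4 and 1 (13.3% and 14.0%). Of 21 other translation genes 4 rose under lefamulin and 5 under tiamulin, where 7.09% and 9.08% of all genes did. They were led by Ppp1r15a (0.78 and 0.92), the phosphatase subunit that restores eIF2, and included the threonyl synthetase-like Tarsl2 (0.39 and 0.31). With single libraries left out, 1 (without control replicate 2 or 3 or lefamulin replicate 1 or 2) to 8 (without tiamulin replicate 2, where 2 fell) rose under lefamulin, and 1 (without control replicate 3) to 5 under tiamulin. Those fits called 3.73% to 12.2% of all genes higher under lefamulin and 5.6% to 11.7% under tiamulin. With only the 2 groups compared 8 rose and 2 fell under lefamulin (12.4% and 12.5% of all genes) and 1 rose under tiamulin (6.70%). With the offsets 5 rose and 1 fell under lefamulin (11.8% and 11.9%), and 5 rose and 2 fell under tiamulin (13.3% and 14.0%).

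Atf4 and its known targets outside the translation genes were counted as well. Of 10 tested genes 9 rose under lefamulin and 10 under tiamulin, where 7.09% and 9.08% of all genes did. Their median log2 changes were 0.57 and 0.65. Ddit3 rose by 1.39 and 1.202, Chac1 by 1.34 and 1.71, and Trib3 by 1.16 and 1.34, and Atf4 itself rose by 0.28 and 0.45. Asns, the asparagine synthetase that makes the amino acid Nars uses, rose by 0.44 and 0.59. Synthetase genes are known as Atf4 targets too. Whether Atf4 had a part in their levels here was not tested.

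**Figure D5:**
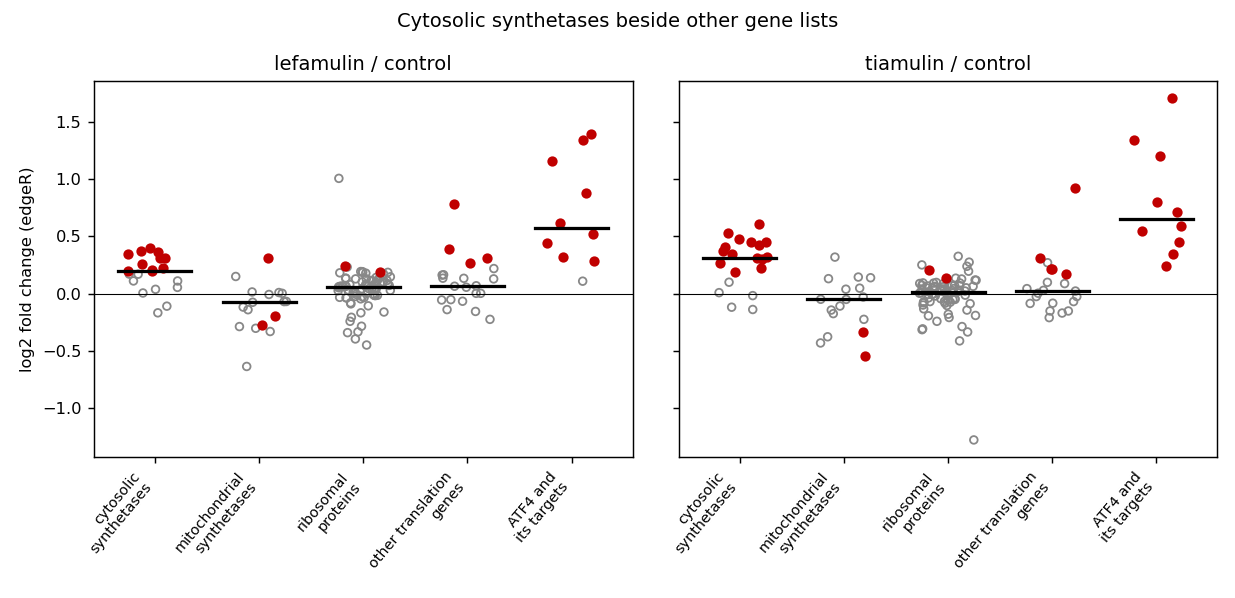
The log2 fold change (vertical, from edgeR) of the 20 cytosolic synthetases beside 4 other gene lists (horizontal), under lefamulin and tiamulin against control. Filled red points have an adjusted p below 0.05 and black lines are medians. The cytosolic synthetases (medians 0.20 and 0.31) lie between the mitochondrial synthetases (-0.08 and -0.05) and Atf4 with its targets (0.57 and 0.65).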

How the data were processed

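RNA-Seq libraries of Hepa1-6 cells were grouped by their labels. The authors deposited whole read counts per gene without normalization, and FPKM values, which matched the counts after scaling to deposited length and library total to within 2.46e-05%. The submitters' processing notes name CASAVA 1.8, fastp, HISAT2 2.0.5, featureCounts 1.5.0-p3, DESeq2 1.20.0 and the build mm10. However, for only 1 of the 110 genes and 1435 of 52036 nuclear genes did the deposited start and end match GRCm38. The build of the deposited positions is therefore not settled, and none is printed. Promoter coordinates are those of RefSeq on GRCm38.p6. The strand setting of the counting is not given in the sources used here, so near-identical, overlapping and antisense genes are uncertain.

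Counts were filtered with filterByExpr, normalized with TMM (factors 0.994 to 1.01) and fitted in edgeR 4.0.16 under R 4.3.3 (robust quasi-likelihood, group as the only term, all 9 libraries), with Benjamini-Hochberg adjustment over 14510 genes. The SE is the absolute log2 change divided by the square root of F. The procedure was tested on simulated data. Alternatives used DESeq2 1.42.0, limma 3.58.1 on log2(FPKM + 1) or log2(FPKM + 0.1), other filters, GC and length offsets, a replicate block, and each library left out. GC content came from transcripts of GENCODE M21.

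Genes were named by a rule: up to 10 per class called under a drug, all called between the drugs, the 3 most abundant per class, paralog pairs and key factors. The other synthetases, Eif3b and Eif4g1 were added after their values were seen. The members, lists, motif and tests were chosen with earlier results of these data known. A second Ddit3 entry in the Atf4 list (11 entries) and Gspt2 among the other translation genes (22) had no counts and were not tested. Intervals cover the spread between libraries only.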

Additional observations from a re-analysis of the deposited data

How the results depend on the processing

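Over 20 other fits no named gene that was called turned its direction. Of the genes called, 8 of 18 under lefamulin, 18 of 34 under tiamulin and 0 of 10 between the drugs were called in each of these fits. Synthetases that rose under lefamulin numbered 6 with limma on unfiltered log2(FPKM + 1), where 1.52% of all genes rose, against 11, and those under tiamulin stayed within 1.5 times 15. The share of all genes called in each fit is given in brackets. Genes that rose under lefamulin (17) were 28 with only the 2 groups compared (12.4%) and 9 with unfiltered limma (1.52%), and those that fell (1) were 2 with DESeq2 (6.69%), 6 with only the 2 groups (12.5%), 8 with GC and length offsets (11.9%) and 0 with unfiltered limma (1.09%). Genes that fell under tiamulin (7) were 3 with no filter (3.83%), 2 with the 2 groups only (5.26%), 13 with the offsets (14.0%) and 2 with unfiltered limma (1.71%). Genes that differed between the drugs (10) were 3 with the 2 groups only (1.21% higher and 0.783% lower), 24 with the offsets (6.33% and 6.76%) and 2 with unfiltered limma (0.197% and 0.147%). Initiation factors that rose under lefamulin (4) were 9 with the 2 groups only (12.4%) and 9 with the offsets (11.8%), and under tiamulin (7) 3 with the 2 groups only (6.70%) and 14 with the offsets (13.3%). Whether the replicate numbers pair the libraries is not known. Of 9 same-number pairs 2 had a correlation of deviations from the group mean over 0.1 (range -0.642 to 0.111). The GC trend enters these deviations and could hide a pairing, and control replicate 1 with tiamulin replicate 2 had 0.67. With the replicate block, 0 genes fell under lefamulin (4.05%), 3 fell under tiamulin (5.44%) and 3 differed between the drugs (1.14% and 0.675%), and with the replicate block and the offsets together 5 (10.7%), 12 (12.8%) and 20 (5.57% and 5.71%) did, with 8 (10.8%) and 12 (12.3%) initiation factors rising. With single libraries left out, genes that rose under lefamulin numbered 11 (without control replicate 3) to 28, and those that fell 0 (without control replicate 1 or 3 or any 1 lefamulin library) to 6. Genes that fell under tiamulin numbered 2 (without control replicate 1 or 3 or tiamulin replicate 1) to 11, with 3 without control replicate 2 or tiamulin replicate 3 and 4 with any 1 lefamulin library left out. Genes that differed between the drugs numbered 1 (with any 1 lefamulin library left out) to 15, and initiation factors that rose 3 to 9 under lefamulin and 3 to 11 under tiamulin, both lowest without control replicate 3. Tiamulin replicate 2, left out, gave the highest number of each. Over the 9 fits with 1 library left out, 3.73% (without control replicate 3) to 12.2% of all genes rose and 2.86% to 12.7% fell under lefamulin. Under tiamulin 5.6% to 11.7% of all genes rose and 4.25% to 11.3% fell. Between the drugs 0.828% to 4.93% were higher and 0.526% to 3.86% lower. Each of these shares was also highest without tiamulin replicate 2. The cause of these differences was not tested. Counting error adds to the spread between libraries for genes with few counts, such as Eef2k.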
